A study of Mus musculus with 16 samples.

Results

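Interferon-stimulated genes were examined in cultured brain endothelial cells that carry human *APOE3* or human *APOE4*. The set holds 45 genes, namely the effector genes that interferons induce and the transcription factors that induce them. They were chosen by name, not by a threshold on their values, but with earlier results of these data known. They are among the 39057 rows of the count table, whose gene identifiers were given symbols with GENCODE release vM21 of the mouse annotation. Of the 45 genes, 42 passed the filter on low counts and were among the 12481 genes tested. Zbp1, Mx1 and Oas2 did not pass it and were not tested.

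Interferons are secreted proteins that warn cells of infection. Type I interferons bind the receptor made of IFNAR1 and IFNAR2, type II interferon binds IFNGR1 and IFNGR2, and both receptors act through JAK kinases and STAT proteins. STAT2 with another STAT and IRF9 binds the interferon-stimulated response element in promoters, while type II interferon acts through the gamma-activated site. Among the induced genes, the IFIT, OAS, IFITM and Mx proteins act against viruses, and the guanylate-binding proteins (GBP) and immunity-related GTPases (IRG) attack the vacuoles of intracellular pathogens and are known as strong targets of type II interferon. Brain endothelial cells form the wall of the blood-brain barrier, carry receptors for both types and meet the interferons of blood and brain.

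The libraries were made from primary cortical endothelial cells of targeted replacement mice, which make human apoE3 or apoE4 from the promoter of the mouse gene in every tissue that uses it. There were 8 *APOE3* and 8 *APOE4* libraries, 4 from males and 4 from females in each genotype, from mice 21 to 28 days old. Each culture came from 1 brain, was selected with 8 µg/ml puromycin, was grown to confluence without further treatment and gave polyadenylated RNA, which was made into a library from 100 ng with 17 cycles of PCR and read as paired ends of 50 bases. Every animal carried human APOE, so there was no wild-type group. Levels are given in CPM, the counts of a gene scaled to the size of the library, or, where genes are set against each other, in RPKM, which also divides by the length of the exons in kilobases. Differences between genotypes are log2 fold changes, *APOE4* against *APOE3*, printed as the value ± its SE from edgeR with the p-value adjusted over all 12481 genes.

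Total counts were 12717847 to 18624417 per library. The reads carry no molecular identifiers, so copies of 1 molecule from the 17 cycles of PCR could not be told from separate molecules. This depth therefore does not give the precision of a count of molecules. All 18 brain endothelial markers were detected, with a summed level of 16969 to 18133 CPM in *APOE3* and 16754 to 18391 CPM in *APOE4* libraries. Their median log2 fold change was -0.04, with 6 of the 18 above 0. By edgeR 1 was called higher and 0 lower, and at an unadjusted p under 0.05, 2 were higher and 5 were lower. Of 17 microglia and macrophage markers, 8 had 0 counts in all 16 libraries, among them P2ry12, C1qa and Tyrobp, and 15 averaged under 1 CPM in both genotypes. The sum of these markers was 8.11 to 10.6 CPM in *APOE3* and 7.05 to 10.4 CPM in *APOE4* libraries. Markers of pericytes and smooth muscle summed to 188 to 355 CPM in *APOE3* and 223 to 340 CPM in *APOE4* libraries, and lymphocyte markers to 1.12 to 3.31 and 0.556 to 2.45 CPM, with 0 genes called in either list by edgeR. Of the markers of fibroblasts, astrocytes and neurons, 6 passed the filter on low counts and 0 were called by edgeR, but 4 had an unadjusted p under 0.05 and a level that was higher with *APOE4*. These were the fibroblast gene Col3a1 (log2 fold change 1.06), the astrocyte genes Aldh1l1 (0.65) and Gja1 (0.13) and the neuron gene Rbfox3 (0.64). Gfap, Aqp4, Snap25 and Syt1 had at most 6 counts in any library. The part of these markers in the results was not tested. The cell cycle list did differ: 23 of its 25 genes were higher with *APOE4*, with a median log2 fold change of 0.65, and its summed level was 1143 to 2316 CPM in *APOE3* and 1910 to 3282 CPM in *APOE4* libraries.

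Of the 42 genes tested, 12 were higher with *APOE4* and 0 were lower, by the quasi-likelihood F test of edgeR at an adjusted p under 0.05. Over all genes tested, 6.71% were higher and 6.09% were lower. The 12 genes were the RNA sensors Ddx58 and Eif2ak2, the effectors Ifi27, Oas1a and Ifitm1, the TRIM genes Trim30a and Trim30d, the guanylate-binding genes Gbp2, Gbp3 and Gbp5, and the immunity-related GTPases Irgm1 and Tgtp1. The changes were small: the median log2 fold change of the 42 genes was 0.12, against -0.00022 over all genes, and 36 of the 42 were above 0. At an unadjusted p under 0.05, 19 were higher and 1, Trim25, was lower, against 14.5% higher and 14.5% lower of all genes. DESeq2 called 14 higher and 0 lower, where 8.21% of all genes were higher, and limma's voom called 14 higher and 0 lower as well, where 7.13% were. None of the 42 genes separated the genotypes without overlap, as 0.256% of all genes did with every *APOE4* library on top.

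**Figure D1:**
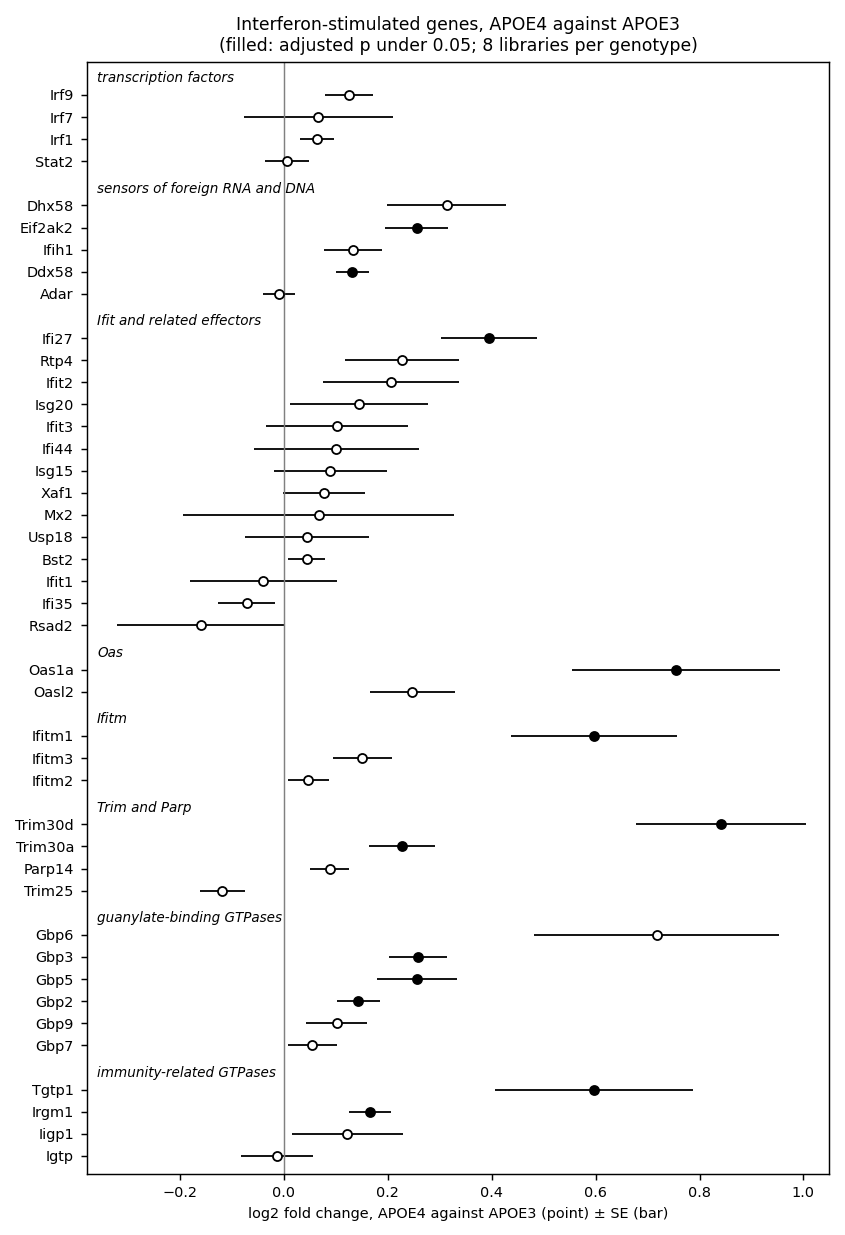
Log2 fold change of each tested gene, *APOE4* against *APOE3* (horizontal axis, point, with its SE as a bar), by gene group. Filled points are the 12 genes with an adjusted p under 0.05, and 36 of 42 points lie right of 0.

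Beside these counts stands the cell cycle list, whose mean log2 CPM was 5.15 to 6.22 in *APOE3* and 5.94 to 6.74 in *APOE4* libraries. With that mean as a covariate, 0 of the 42 genes and 0 of all 12481 genes were called by edgeR. Of the 42, 6 then had an unadjusted p under 0.05, all higher, 32 were above 0, and their median log2 fold change was 0.09. The 12 genes were all above 0 with the covariate, but their median log2 fold change was 0.16 instead of 0.26, and in 8 of them it was more than 1.5 times smaller. Gbp5 went from 0.26 to 0.03, Tgtp1 from 0.60 to 0.16, Eif2ak2 from 0.26 to 0.09, Gbp3 from 0.26 to 0.12, Ifi27 from 0.39 to 0.19, Ddx58 from 0.13 to 0.06, Oas1a from 0.75 to 0.44 and Gbp2 from 0.14 to 0.09. Trim30d had 0.57 in place of 0.84 and Ifitm1 0.47 in place of 0.60, while Irgm1 (0.17) and Trim30a (0.23) were the same to 2 decimals. With the summed microglia and macrophage markers as a covariate, 9 of the 12 calls remained. In that fit 3.86% of all genes were higher, against 6.71% without the covariate. The calls lost were the GTPases Gbp2 (adjusted p of edgeR 0.0575), Gbp5 (0.0713) and Tgtp1 (0.0773). Their log2 fold changes went from 0.143 to 0.137, from 0.256 to 0.230 and from 0.597 to 0.578. At an unadjusted p under 0.05, 22 of the 42 genes were higher with the covariate, against 19 without it. In bulk RNA, fewer cells with a transcript and less of it per cell cannot be told apart.

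Windows of promoter sequence were taken from RefSeq (GRCm38.p6, the same build as the mm10 of the labels), from 250 bases before to 50 bases after each start site. A promoter was found for 33 of the 45 genes, 11 of them among the 12 that were higher. Both strands were searched for the core of the interferon-stimulated response element, written as GAAA, 2 bases of any kind and GAAA. It was present in 21 of the 33 genes (63.6%), against 3.99% of the 27025 genes with a promoter in the table. Of the 11 genes that were higher, 10 held it, Ifitm1 being the exception, and of the 22 that were tested and not called, 11 held it. No promoter was found for Ifi27, which was higher. The same was so for Dhx58, Usp18, Rtp4, Mx2, Parp14, Gbp6, Gbp9 and Iigp1, which were tested and not called. The gamma-activated site, written as TTC, 3 bases of any kind and GAA, was present in 13 of the 33 genes (39.4%), against 9.55% of all. It was in 4 of the 11 genes that were higher and in 9 of the 22 that were tested and not called. For neither motif was the difference between called and uncalled genes tested. A match is a description of these letters and was not shown to be bound. The genes were chosen as interferon-stimulated, so a share above that of all genes could come from the choice itself.

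The matches upstream of the start site are shown for 8 genes that were higher with *APOE4*, so that the shared element can be seen, and for 3 classical interferon-stimulated genes that were not called. Each is read 5′ to 3′ along the strand of the gene, the capitals mark the match, and capitals that begin with TTTC are the element on the opposite strand. Where a window held several matches, the one nearest the start site is in capitals.
Oas1a, chr5:120907526-120907559, minus strand: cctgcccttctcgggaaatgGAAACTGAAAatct
Trim30a, chr7:104465200-104465249, minus strand: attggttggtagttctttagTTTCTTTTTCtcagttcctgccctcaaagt
Trim30d, chr7:104507861-104507910, minus strand: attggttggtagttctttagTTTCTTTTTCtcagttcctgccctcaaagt
Gbp2, chr3:142620584-142620633, plus strand: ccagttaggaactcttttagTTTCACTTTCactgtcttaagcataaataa
Gbp3, chr3:142559985-142560034, plus strand: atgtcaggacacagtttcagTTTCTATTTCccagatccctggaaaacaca
Gbp5, chr3:142496749-142496798, plus strand: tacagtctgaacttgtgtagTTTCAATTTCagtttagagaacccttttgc
Irgm1, chr11:48871421-48871464, minus strand: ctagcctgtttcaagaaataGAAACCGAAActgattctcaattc
Tgtp1, chr11:48992294-48992343, minus strand: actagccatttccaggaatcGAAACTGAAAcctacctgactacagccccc
Ifit1, chr19:34640784-34640833, plus strand: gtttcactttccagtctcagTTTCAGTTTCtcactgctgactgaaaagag
Isg15, chr4:156200855-156200904, minus strand: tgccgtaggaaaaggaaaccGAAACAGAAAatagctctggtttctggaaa
Rsad2, chr12:26456543-26456592, minus strand: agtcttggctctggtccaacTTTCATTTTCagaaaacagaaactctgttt
The stretches of Trim30a and Trim30d, which are neighbours on chromosome 7, were identical in 50 of 50 bases. The match of Gbp2 ended 49 bases before the start site, that of Irgm1 14 bases and that of Gbp5 155 bases before it. Ddx58, Eif2ak2, Ifih1 and Ifitm3 had their matches after the start site, and these are not shown.

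The ligands themselves were next to absent. Of 21 interferon genes, which included Ifnb1, the Ifna family and Ifng, 19 had 0 counts in all 16 libraries, and the other two, Ifnk and Ifnz, never passed 3 counts in a library. The receptors were well expressed and their levels did not pass the test. Ifnar1, a chain of the type I receptor, was at 299 to 372 CPM with a median of 327 in *APOE3* libraries and 280.0 to 368 CPM with a median of 318 in *APOE4* libraries (a log2 difference of -0.02 ± 0.0537, adjusted p = 0.882). Ifngr1, of the type II receptor, was at 151 to 176 CPM with a median of 164 in *APOE3* libraries and 159.7 to 181 CPM with a median of 169.7 in *APOE4* libraries (a log2 difference of 0.06 ± 0.0365, adjusted p = 0.275). Ifnlr1, a chain of the type III receptor, had 14 counts over all libraries and was not tested. Of the 10 genes given for receptors and their kinases, 9 were tested and 0 were called by edgeR or had an unadjusted p under 0.05, and the median log2 fold change was -0.01.

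Of 13 tested genes of the pathway that induces interferon, 2 were higher and 1 was lower, against 6.71% higher and 6.09% lower of all genes. Ticam1, the adaptor of the double-stranded RNA receptor TLR3, was at 22.2 to 29.6 CPM with a median of 27.0 in *APOE3* libraries and 27.5 to 33.9 CPM with a median of 30.3 in *APOE4* libraries (a log2 difference of 0.20 ± 0.0559, adjusted p = 0.0281). Tmem173, the STING protein that relays the sensing of cytosolic DNA, was at 29.8 to 37.8 CPM with a median of 33.4 in *APOE3* libraries and 34.6 to 47.8 CPM with a median of 40.0 in *APOE4* libraries (a log2 difference of 0.24 ± 0.0657, adjusted p = 0.0222). Irf3, the transcription factor both adaptors lead to, was lower, at 71.0 to 77.1 CPM with a median of 73.6 in *APOE3* libraries and 61.5 to 75.5 CPM with a median of 69.0 in *APOE4* libraries (a log2 difference of -0.12 ± 0.0374, adjusted p = 0.0460). All 3 genes had overlapping ranges. Among 7 tested genes that restrain interferon signalling, Samhd1, an enzyme that breaks down the building blocks of DNA, was lower (a log2 difference of -0.18 ± 0.0580, adjusted p = 0.0453). The other 6 were not called, where 6.09% of all genes were lower.

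Of the 4 transcription factors in the set, 0 were called by edgeR, 1 (Irf9) had an unadjusted p under 0.05, and the median log2 fold change was 0.06. Irf1, which drives many targets of type II interferon, was the most abundant of them per length, at 26.9 RPKM over both genotypes. Irf1 was at 96.2 to 113 CPM with a median of 105 in *APOE3* libraries and 103 to 115 CPM with a median of 110.0 in *APOE4* libraries (a log2 difference of 0.06 ± 0.0332, adjusted p = 0.213), and the ranges overlapped for most libraries. Stat2, Irf7 and Irf9 had log2 fold changes of 0.01, 0.07 and 0.12, and the annotated exons of Irf9 overlap those of Rnf31 on the same strand, so their reads could be shared.

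The sensors detect foreign nucleic acid inside the cell. Ddx58 (ENSMUSG00000040296.15, chromosome 4 from 40203773 to 40239828, minus strand), which encodes the RNA sensor RIG-I, was at 118 to 132 CPM with a median of 126 in *APOE3* libraries and 130.3 to 145 CPM with a median of 136 in *APOE4* libraries. Only *APOE3* replicate 31, the highest of its group, reached into the *APOE4* range. The difference passed the test (a log2 difference of 0.13 ± 0.0315, adjusted p = 0.0127). Eif2ak2 (ENSMUSG00000024079.4, chromosome 17 from 78852564 to 78882573, minus strand), the RNA-activated kinase PKR that halts translation, was at 25.0 to 33.6 CPM with a median of 28.4 in *APOE3* libraries and 30.4 to 38.6 CPM with a median of 34.6 in *APOE4* libraries, and 7 of 8 *APOE3* libraries lay below every *APOE4* library (a log2 difference of 0.26 ± 0.0604, adjusted p = 0.0122). The exons of Eif2ak2 overlap annotated transcripts of the opposite strand.

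The other sensors were not called. Dhx58, the RIG-I relative LGP2 that modulates the others, was at 5.81 to 8.51 CPM with a median of 6.89 in *APOE3* libraries and 6.02 to 12.0 CPM with a median of 8.83 in *APOE4* libraries (a log2 difference of 0.31 ± 0.115, adjusted p = 0.0744), and 7 of 8 *APOE4* libraries were above the *APOE3* median. Ifih1, the sensor MDA5, had a log2 fold change of 0.13 (adjusted p = 0.114), and Adar, which edits double-stranded RNA, of -0.01. Zbp1, a sensor of Z-form nucleic acid, had 1 to 18 counts per library.

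The Ifit and related effectors include the genes most often read as a sign of type I interferon. Of the 14 tested, only Ifi27 was called, where 6.71% of all genes were higher. The median log2 fold change of the 14 was 0.08. Ifi27 (ENSMUSG00000064215.13, chromosome 12 from 103434211 to 103440239, plus strand), a small membrane protein, was at 25.5 to 40.5 CPM with a median of 34.2 in *APOE3* libraries and 34.3 to 48.2 CPM with a median of 45.4 in *APOE4* libraries. All *APOE4* libraries except replicate 38 lay above every *APOE3* library. The difference passed the test (a log2 difference of 0.39 ± 0.0922, adjusted p = 0.0117).

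Ifit1, which binds viral RNA, had a log2 fold change of -0.04, and Ifit3 had 0.10. Of the 50-base stretches of Ifit3, 51.2% also occur in Ifit3b, so that the 2 copies may share reads. Isg15, the ubiquitin-like modifier, had 0.09, Usp18, the protease that removes it, 0.04, and Rsad2, the antiviral enzyme viperin, -0.16. Ifit2 was at 3.75 to 8.24 CPM with a median of 5.55 in *APOE3* libraries and 5.62 to 8.83 CPM with a median of 6.14 in *APOE4* libraries (a log2 difference of 0.21 ± 0.131, adjusted p = 0.317), with *APOE4* replicate 40 above the rest. Rtp4, a chaperone of receptors and antiviral effector, was at 6.70 to 11.8 CPM with a median of 8.54 in *APOE3* libraries and 8.07 to 11.6 CPM with a median of 10.1 in *APOE4* libraries (a log2 difference of 0.23 ± 0.110, adjusted p = 0.177).

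Bst2, the tether that holds budding virions at the cell surface, was the third most abundant of the set per length, at 96.7 RPKM. Its level was 81.6 to 92.1 CPM with a median of 86.4 in *APOE3* libraries and 81.9 to 97.1 CPM with a median of 88.3 in *APOE4* libraries, and the groups overlapped nearly in full (a log2 difference of 0.04 ± 0.0361, adjusted p = 0.455). The remaining genes of this group, Isg20, Ifi35, Ifi44, Xaf1 and Mx2, had log2 fold changes of -0.07 to 0.14. Mx1, a dynamin-like antiviral GTPase, had 0 to 14 counts per library.

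Oas1a and Oasl2 were the tested members of the 2′-5′ oligoadenylate synthetase family, whose product activates the ribonuclease RNase L, and Oas2 had 0 to 3 counts per library. Oas1a (ENSMUSG00000052776.10, chromosome 5 from 120896256 to 120907521, minus strand) was at 0.894 to 2.43 CPM with a median of 1.97 in *APOE3* libraries and 1.72 to 4.21 CPM with a median of 3.38 in *APOE4* libraries. *APOE4* replicates 37 and 38, both male, lay within the *APOE3* range and the other 6 above it (a log2 difference of 0.75 ± 0.201, adjusted p = 0.0203). Its counts were 14 to 64 per library, and 57.6% of its 50-base stretches also occur in Oas1g. Oasl2 was at 22.1 to 32.4 CPM with a median of 27.7 in *APOE3* libraries and 25.6 to 35.3 CPM with a median of 32.9 in *APOE4* libraries. It missed the threshold (a log2 difference of 0.25 ± 0.0814, adjusted p = 0.0502) although it was called in 5 of the 16 fits without 1 library.

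The Ifitm genes encode membrane proteins that hinder the entry of viruses. Ifitm3 and Ifitm2 were the 2 most abundant genes of the set per length, at 295 and 146 RPKM, while Ifitm1 was at 2.46 RPKM. Ifitm1 (ENSMUSG00000025491.14, chromosome 7 from 140967221 to 140969825, plus strand) was at 1.38 to 3.24 CPM with a median of 1.96 in *APOE3* libraries and 2.62 to 4.18 CPM with a median of 3.15 in *APOE4* libraries, and the *APOE3* females replicates 31 and 32 reached into the *APOE4* range (a log2 difference of 0.60 ± 0.160, adjusted p = 0.0209). Its counts were 21 to 64 per library.

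Ifitm3 was at 171 to 207 CPM with a median of 192 in *APOE3* libraries and 165 to 239 CPM with a median of 215 in *APOE4* libraries and was not called (a log2 difference of 0.15 ± 0.0564, adjusted p = 0.0806). Its lowest *APOE4* library, replicate 38, was below every *APOE3* library, and 6 of the others were above all of them. Ifitm2 was at 86.5 to 104 CPM with a median of 94.8 in *APOE3* libraries and 87.6 to 102 CPM with a median of 99.4 in *APOE4* libraries (a log2 difference of 0.05 ± 0.0397, adjusted p = 0.468), and 48.5% of its 50-base stretches occur in other genes.

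**Figure D2:**
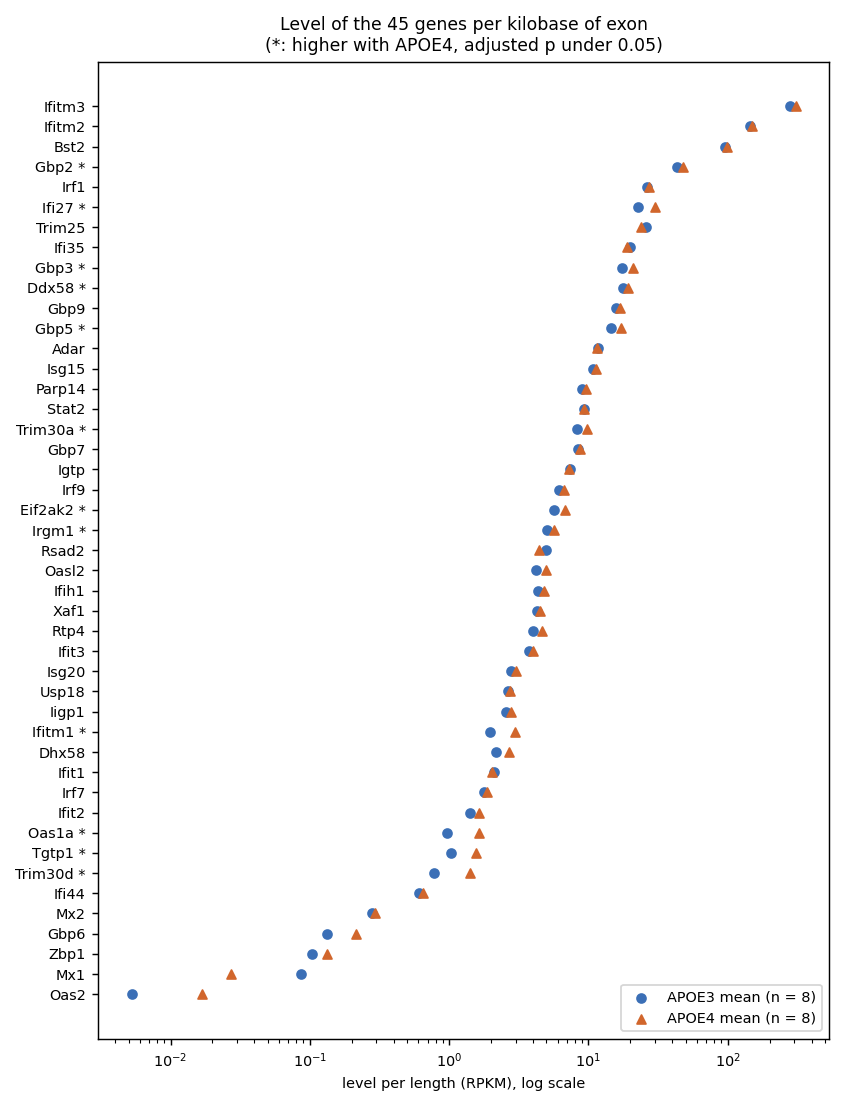
Mean level of the 45 genes per kilobase of exon (RPKM, log axis) in *APOE3* and *APOE4* libraries (n = 8 each), in order of level, with the 12 higher genes starred. Levels run from Ifitm3 at 295 RPKM down to Oas2 at 0.011 RPKM, and the starred genes lie from rank 4, Gbp2, to low levels.

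Among the TRIM and PARP genes, Trim30d (ENSMUSG00000057596.13, chromosome 7 from 104470014 to 104507849, minus strand) had the greatest change of the 42. It was at 1.97 to 4.15 CPM with a median of 2.75 in *APOE3* libraries and 4.08 to 6.91 CPM with a median of 5.23 in *APOE4* libraries. The lowest *APOE4* library stood just under the highest *APOE3* library, and the groups were otherwise apart (a log2 difference of 0.84 ± 0.163, adjusted p = 0.00640). Trim30a (ENSMUSG00000030921.17, chromosome 7 from 104409025 to 104465193, minus strand), a brake on inflammatory signalling from Toll-like receptors, was at 30.6 to 39.3 CPM with a median of 33.7 in *APOE3* libraries and 33.5 to 45.5 CPM with a median of 39.8 in *APOE4* libraries, with 4 libraries of each group inside the range of the other (a log2 difference of 0.23 ± 0.0635, adjusted p = 0.0256).

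Trim25, the ubiquitin ligase that activates RIG-I, went the other way without passing the test, at 135 to 162 CPM with a median of 146 in *APOE3* libraries and 127 to 149.8 CPM with a median of 136 in *APOE4* libraries (a log2 difference of -0.12 ± 0.0431, adjusted p = 0.0728). It was called lower in the fits without *APOE3* replicate 32 and without *APOE4* replicate 40. Parp14, an ADP-ribosyltransferase, had a log2 fold change of 0.09 (adjusted p = 0.128).

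The guanylate-binding GTPases had 3 calls among 6 genes, where 6.71% of all genes were higher. The median log2 fold change of the 6 was 0.20, and all 6 were above 0. Gbp3 (ENSMUSG00000028268.14, chromosome 3 from 142560026 to 142573209, plus strand) was at 50.6 to 62.6 CPM with a median of 55.3 in *APOE3* libraries and 58.9 to 75.0 CPM with a median of 68.2 in *APOE4* libraries. Of the *APOE4* libraries, only replicate 38 fell within the *APOE3* range (a log2 difference of 0.26 ± 0.0550, adjusted p = 0.00824). Gbp5 (ENSMUSG00000105504.4, chromosome 3 from 142493978 to 142522344, plus strand), which promotes inflammasome assembly, was at 78.7 to 117 CPM with a median of 95.2 in *APOE3* libraries and 100.5 to 132 CPM with a median of 114 in *APOE4* libraries, with 4 *APOE4* libraries above every *APOE3* library (a log2 difference of 0.26 ± 0.0763, adjusted p = 0.0331).

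Gbp2 (ENSMUSG00000028270.12, chromosome 3 from 142620602 to 142638008, plus strand) was the most abundant of this group per length, at 45.6 RPKM. It was at 101 to 121 CPM with a median of 108 in *APOE3* libraries and 111 to 136 CPM with a median of 120.0 in *APOE4* libraries, and 6 of 8 *APOE3* libraries lay below every *APOE4* library (a log2 difference of 0.14 ± 0.0411, adjusted p = 0.0281). Gbp6 missed the threshold at 0.422 to 1.27 CPM with a median of 0.796 in *APOE3* libraries and 0.866 to 2.01 CPM with a median of 1.13 in *APOE4* libraries (a log2 difference of 0.72 ± 0.237, adjusted p = 0.0505), on 7 to 37 counts per library, and 70.7% of its 50-base stretches occur in related Gbp genes. Gbp7 and Gbp9 had log2 fold changes of 0.05 and 0.10, and the exons of Gbp9 overlap those of Gbp4 and Gbp8 on the same strand.

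Of the 4 immunity-related GTPases, 2 were called, where 6.71% of all genes were higher. The median log2 fold change of the 4 was 0.14. Irgm1 (ENSMUSG00000046879.7, chromosome 11 from 48861968 to 48871683, minus strand), a regulator that keeps the others off the cell's own membranes, was at 26.8 to 31.6 CPM with a median of 29.1 in *APOE3* libraries and 31.5 to 35.0 CPM with a median of 33.0 in *APOE4* libraries. The lowest *APOE4* library and the highest *APOE3* library were almost level, and all other libraries were apart (a log2 difference of 0.17 ± 0.0406, adjusted p = 0.0140). Tgtp1 (ENSMUSG00000078922.9, chromosome 11 from 48985327 to 48994172, minus strand), an effector GTPase, was at 2.08 to 5.28 CPM with a median of 2.95 in *APOE3* libraries and 3.22 to 6.69 CPM with a median of 4.78 in *APOE4* libraries, and only 2 *APOE4* libraries were above every *APOE3* library (a log2 difference of 0.60 ± 0.190, adjusted p = 0.0437). Its counts were 31 to 123 per library, and 81.2% of its 50-base stretches occur in Tgtp2 or Gm12185. Igtp and Iigp1, 2 further GTPases of this family, had log2 fold changes of -0.01 and 0.12.

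Set side by side, the guanylate-binding and immunity-related GTPases had 5 calls among 10 genes, and the Ifit, Oas and Ifitm groups had 3 among 19. The share of all genes that were higher was 6.71%. The median log2 fold changes of these groups were 0.15 and 0.10 in the same order, with 9 of 10 and 16 of 19 genes above 0. With the microglia and macrophage markers as a covariate, 3.86% of all genes were higher. The GTPases Gbp2, Gbp5 and Tgtp1 were no longer called in that fit, at log2 fold changes of 0.137, 0.230 and 0.578. The 3 calls of the Ifit, Oas and Ifitm groups remained in that fit. The difference between these groups was not tested.

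**Figure D3:**
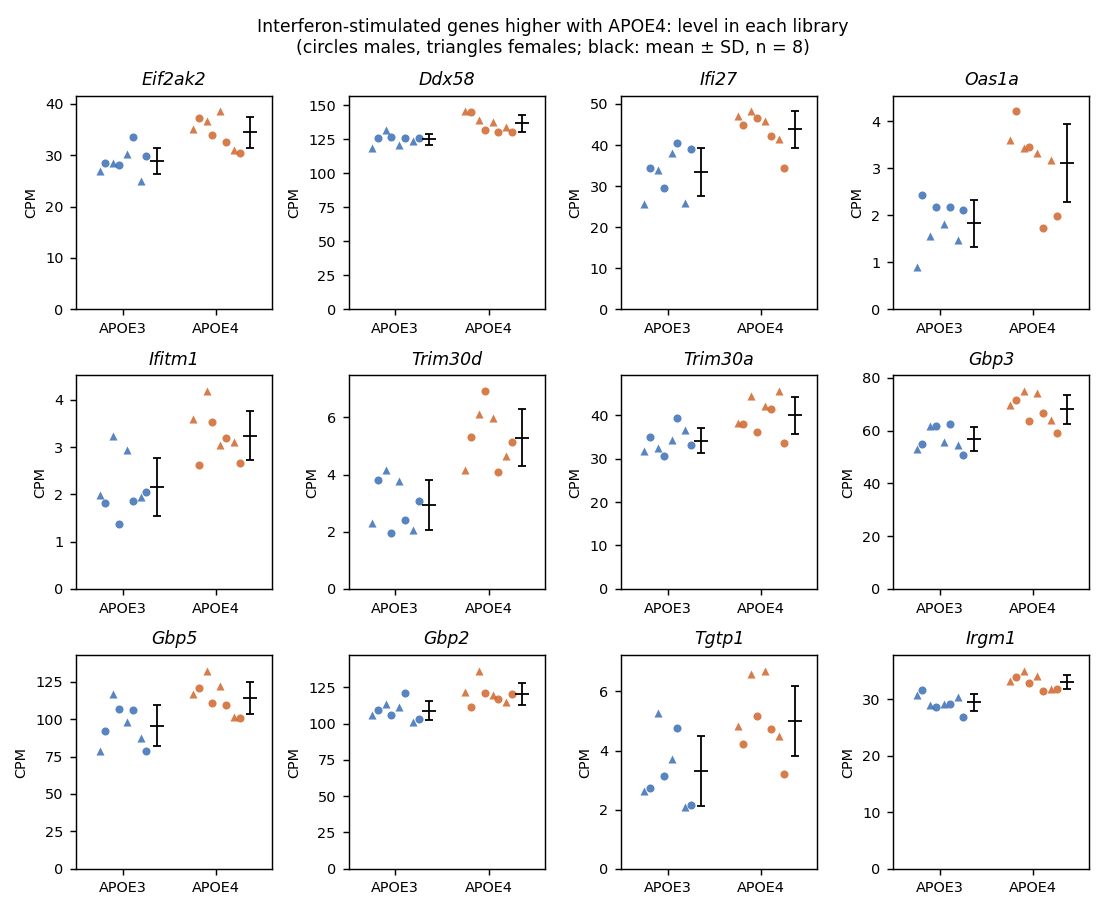
Level (CPM, vertical axes from 0) of the 12 genes that were higher with *APOE4*, in each of the 8 *APOE3* and 8 *APOE4* libraries (circles males, triangles females), with mean ± SD in black. The groups overlap in each panel, in Irgm1 and Trim30d by 1 library of each group.

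The 12 calls differed in how far they rested on single libraries. Ddx58, Eif2ak2, Ifi27, Oas1a, Ifitm1, Trim30d, Gbp3 and Irgm1 were called whichever of the 16 libraries was left out. Trim30a was called in 12 of these 16 fits, Gbp2 in 10, Gbp5 in 8 and Tgtp1 in 4. The highest adjusted p of edgeR in these fits was 0.0579 for Trim30a and 0.0733 for Gbp5, both without *APOE3* replicate 30. It was 0.0628 for Gbp2 without *APOE3* replicate 33, and 0.103 for Tgtp1 without *APOE4* replicate 41. In these 3 fits 3.84%, 4.17% and 3.72% of all genes were higher, against 6.71% in the main fit. A correction for GC content and gene length, where 5.84% of all genes were higher, left 9 of the 12 called. Trim30a had an adjusted p of edgeR of 0.0763 in that fit, Gbp2 of 0.0907 and Tgtp1 of 0.0568.

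Averaged over the 42 genes, the deviation of a library from each gene's mean was -0.28 to 0.06 on the log2 CPM scale in *APOE3* and -0.12 to 0.26 in *APOE4* libraries. *APOE3* replicate 30 was the lowest and *APOE4* replicate 40 the highest. *APOE3* replicate 25 stood above the other *APOE3* libraries at several Ifit and related genes, among them Usp18 and Ifit1, and *APOE4* replicate 38 was the single *APOE4* library below 0.

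**Figure D4:**
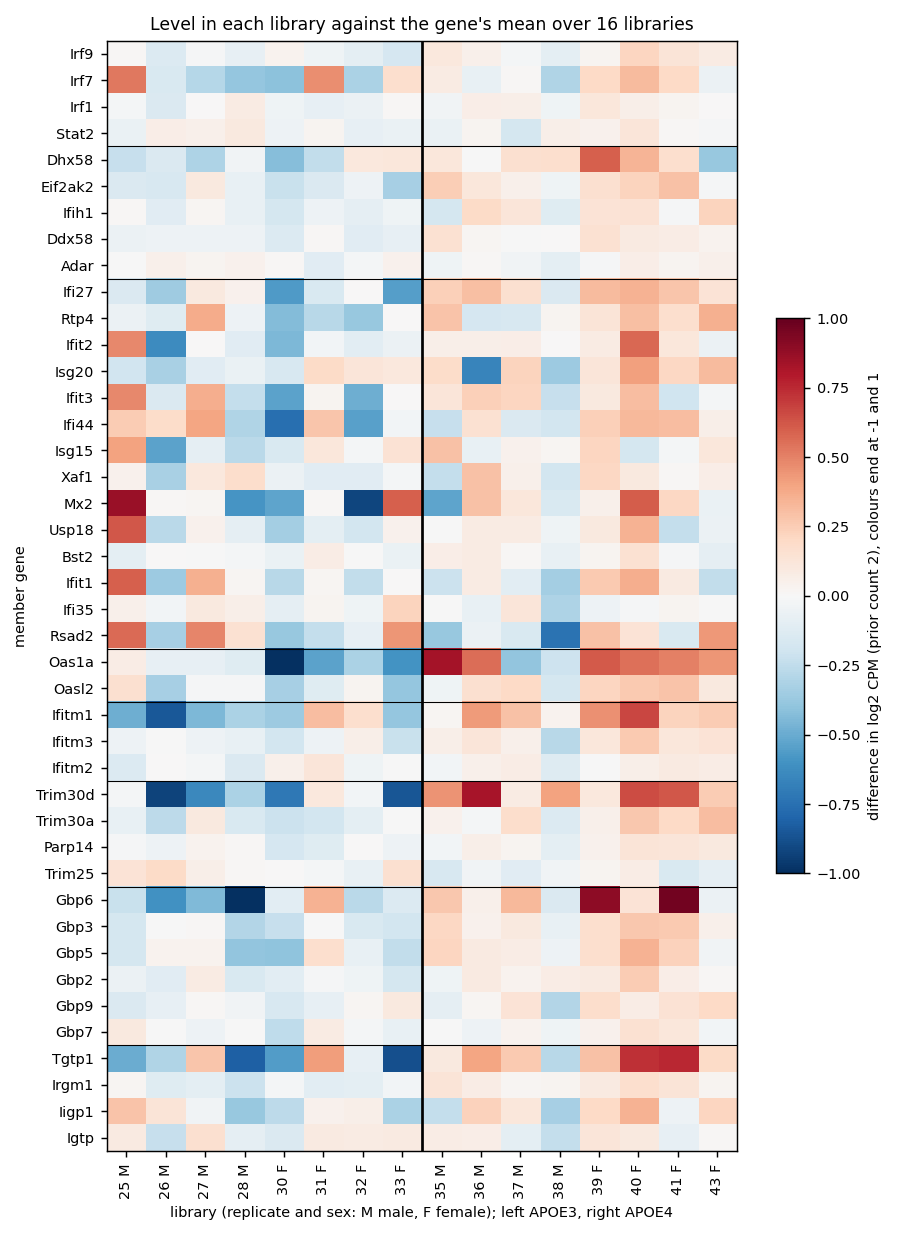
Level of the 42 tested genes (rows, in the order of the gene groups) in the 16 libraries (columns, *APOE3* left and *APOE4* right, males before females), as the difference in log2 CPM from the gene's mean. The average over the genes runs from -0.28 in *APOE3* replicate 30 to 0.26 in *APOE4* replicate 40.

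With 4 against 4 libraries, edgeR called 0 of the 42 genes within males and 0 within females, and 0 of all genes. At an unadjusted p under 0.05, 21 genes were higher and 0 were lower in females, where 9.92% of all genes were higher. In males 5 were higher, against 7.65% of all genes, and 2, Rsad2 and Trim25, were lower, against 820 of all 12481 genes. The 5 were Ifitm1, Trim30d, Gbp3, Gbp6 and Irgm1. The median log2 fold change was 0.22 in females, with 40 of 42 genes above 0, and 0.05 in males, with 25 of 42 above 0. Markers of pericytes and smooth muscle ran the same way: their median log2 fold change over 7 tested genes was 0.53 in females, with all 7 above 0, and -0.02 in males, with 3 above 0, and 0 were called by edgeR in either sex. The cell cycle list had medians of 0.69 in females and 0.61 in males. The part of either list in the difference between the sexes was not tested. Within females DESeq2 called 10 of the 42 genes (1.72% of all genes) and voom 12 (3.72% of all genes), and within males both called 0.

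The difference between the sexes was tested by the interaction term. None of the 42 genes passed after adjustment in edgeR, DESeq2 or voom. At an unadjusted p under 0.05 edgeR had 7, against 2.76% of all genes, and in all 7 the signed log2 fold change was higher in females. They were Ifit1, Ifi44, Rsad2, Rtp4, Oas1a, Oasl2 and Parp14, named here after their values were seen. In males the change was below 0 for Ifit1 (-0.34), Ifi44 (-0.26), Rsad2 (-0.58), Rtp4 (-0.05) and Parp14 (-0.01). It was above 0 in males for Oas1a (0.33) and Oasl2 (0.08), and above 0 in females for all 7.

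Rsad2 averaged 23.5 ± 6.20 CPM (SD, n = 4) in *APOE3* males and 15.8 ± 3.15 CPM in *APOE4* males, against 19.2 ± 5.18 and 22.4 ± 3.80 CPM in females. Oas1a averaged 2.22 ± 0.145 and 2.84 ± 1.19 CPM in males and 1.43 ± 0.390 and 3.38 ± 0.179 CPM in females. The guanylate-binding and immunity-related GTPases held none of the 7, and Irgm1 had log2 fold changes of 0.16 in males and 0.17 in females.

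Over the 42 genes, the 4 *APOE4* females averaged 0.07 to 0.26 above each gene's mean, and the 4 *APOE3* females -0.28 to 0.0028, so that the female groups did not overlap. How often other sets of genes separate 4 against 4 libraries in this way was not tested. The *APOE4* males ran from -0.12 to 0.10 and the *APOE3* males from -0.18 to 0.06. Sex itself, averaged over genotypes, gave 0 calls in the set by edgeR, DESeq2 and voom, where edgeR called 0.0721% of all genes. At an unadjusted p under 0.05, 5 of the 42 were higher in females (Isg20, Ifitm1, Ifitm2, Gbp6 and Gbp9) and 0 were lower. Of all 12481 genes, 242 were higher and 290 were lower in females, 4.26% in both directions together.

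**Figure D5:**
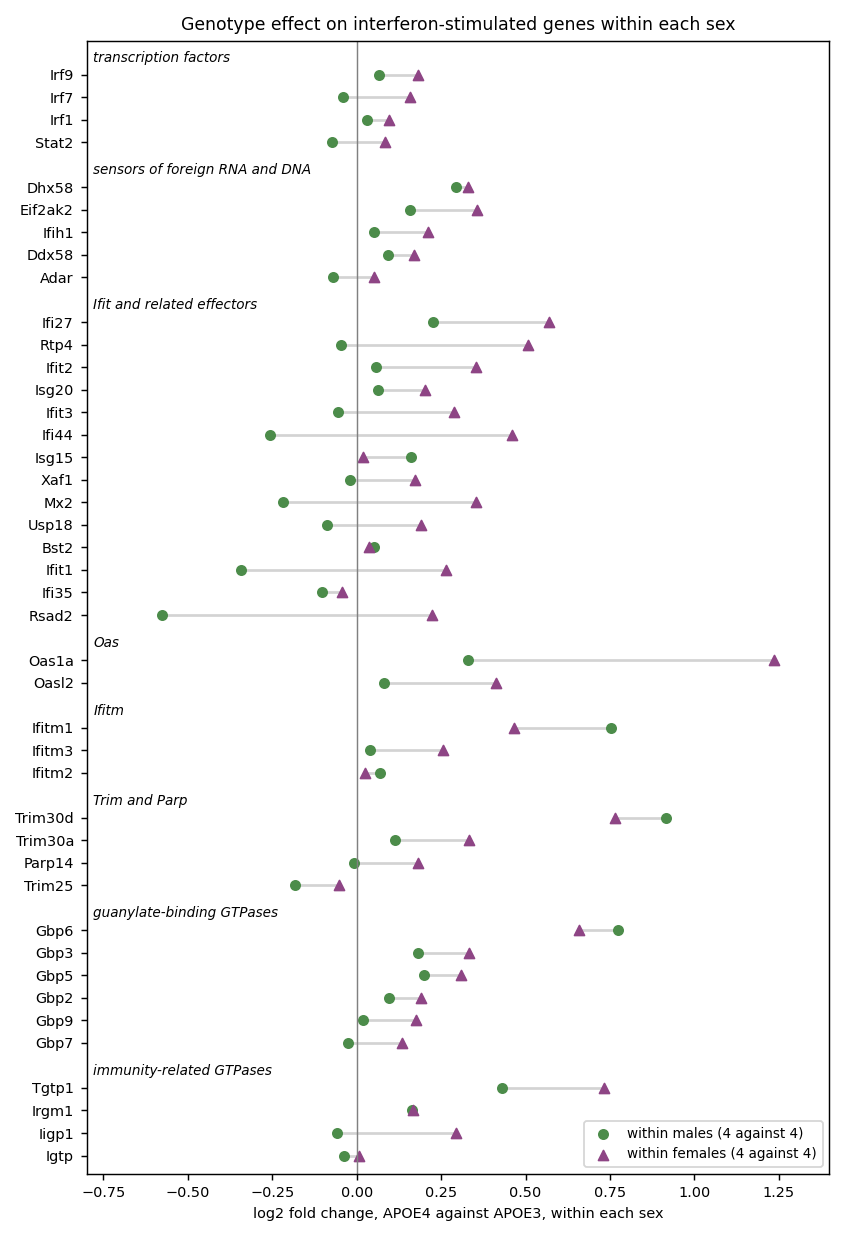
Log2 fold change of each tested gene, *APOE4* against *APOE3* (horizontal axis), within males (circles) and within females (triangles), 4 libraries per genotype and sex. In females 40 of 42 points lie right of 0 and in males 25 of 42, and no gene passed the adjusted interaction test.

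Of 60 further interferon-stimulated genes, 40 were tested, 7 were higher and 1 was lower, against 6.71% higher and 6.09% lower of all genes. The median log2 fold change of the 40 was 0.11. Nlrc5, the activator of MHC class I transcription, was at 3.89 to 7.81 CPM with a median of 6.78 in *APOE3* libraries and 7.24 to 13.5 CPM with a median of 11.1 in *APOE4* libraries (a log2 difference of 0.74 ± 0.130, adjusted p = 0.00542). Slfn9, of the Schlafen family, was at 34.8 to 64.2 CPM with a median of 43.9 in *APOE3* libraries and 54.9 to 87.9 CPM with a median of 61.9 in *APOE4* libraries (a log2 difference of 0.53 ± 0.112, adjusted p = 0.00817). Ifi47, an immunity-related GTPase that was not among the 45, was at 8.11 to 13.6 CPM with a median of 11.5 in *APOE3* libraries and 13.8 to 18.8 CPM with a median of 15.3 in *APOE4* libraries (a log2 difference of 0.43 ± 0.0926, adjusted p = 0.00830), and its exons overlap those of Olfr56.

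Ifi47 did not overlap between genotypes, and Dtx3l was likewise apart, while Nlrc5 and Slfn9 overlapped. Of all genes tested, 0.256% had every *APOE4* library above every *APOE3* library. Dtx3l, a ubiquitin ligase that works with PARP9, was at 39.0 to 45.4 CPM with a median of 42.8 in *APOE3* libraries and 45.5 to 49.5 CPM with a median of 47.7 in *APOE4* libraries (a log2 difference of 0.18 ± 0.0372, adjusted p = 0.00817). Lgals3bp, a secreted glycoprotein, had a log2 fold change of 0.27 and Pml, the scaffold of nuclear bodies, of 0.16. Parp12 was higher as well (0.11), and Slfn5 was lower (a log2 difference of -0.26 ± 0.0825, adjusted p = 0.0448), both named after their values were seen. Cxcl10, the chemokine most often used as an interferon readout, had a log2 fold change of -0.33 on 550 counts in all and was not called (adjusted p = 0.581). Its relative Cxcl9 and Ciita, the activator of MHC class II, averaged 0.0644 and 0.0409 CPM in *APOE3* libraries and were not tested.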

How the data were processed

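The counts deposited by the authors are whole numbers of reads per gene, not normalized, for 16 libraries. Per the labels' processing notes, STAR and featureCounts were used with mm10 and hg38; versions, annotation release and strand setting are not given in the sources used here. A read that fits near-identical genes, overlapping genes or the opposite strand could therefore be assigned either way. Of the 39057 identifiers, 39056 were mouse genes, and 38872 matched GENCODE vM21. 0 columns were left unmapped, and 0 pairs of libraries were identical.

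Genotypes were compared with edgeR 4.0.16 in R 4.3.3 (filterByExpr by genotype, TMM, genotype as the single term, quasi-likelihood F test, Benjamini-Hochberg adjustment over 12481 genes, threshold 0.05). Effects within each sex, their interaction and sex came from 1 fit of 4 groups of 4 libraries. Log2 CPM used a prior count of 2. Exon sequence was compared between genes in stretches of 50 bases. The fits were tested on simulated data. Python 3.11.15, pandas 2.3.3 and matplotlib 3.10.9 made tables and figures.

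The members, the gene lists and the rule for named genes were chosen with earlier results of these data known. By that rule, called members, the 5 uncalled members with the largest change, the 5 uncalled members with the highest RPKM and up to 6 called genes of each other list are given with values. Each of the 16 cultures came from 1 animal. Alternatives were DESeq2's size factors and Wald test (1.42.0), limma's voom with sample quality weights (3.58.1), no filter, at least 10 counts in every library, sex, the cell cycle score or microglia markers as a covariate, GC content and length corrected by splines with 5 degrees of freedom, and each library left out in turn. 3 genes of the lists are not reported here.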

Additional observations from a re-analysis of the deposited data

Results flagged for a closer look

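In 5 of the 84 groups of 8 libraries (42 genes, each genotype) a single library stood apart from the rest, its gap to the nearest library taking a greater part of the group's range than Dixon's critical value allows. Chance flags about 1 in 20 groups. Usp18 had its highest *APOE3* value in replicate 25, at 11.4 CPM against 7.64 in the next library (gap 0.674 of the range). Ifit2 had its highest *APOE4* value in replicate 40, at 8.83 against 6.36 CPM (0.770). Gbp2, which was called, had its highest *APOE4* value in the same replicate, at 136 against 122 CPM (0.578). Ifitm3 had its lowest *APOE4* value in replicate 38, at 165 against 206 CPM (0.552). Adar had its lowest *APOE3* value in replicate 31, at 87.1 against 92.8 CPM (0.555). The cause was not tested.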

How the results depend on the processing

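The 12 genes called higher became 0 once the cell cycle score was a covariate, where edgeR called 0 of all genes as well. The other alternatives, each library left out included, gave 8 to 17 genes higher. There were 8 without *APOE3* replicate 30, *APOE4* replicate 40 or *APOE4* replicate 41, where 3.84%, 5.06% and 3.72% of all genes were higher. There were 17 without *APOE4* replicate 38, where 6.6% of all genes were higher. The main fit had 6.71%. The 12 genes and 20 more kept their sign in every alternative, and 10 near 0 did not. With the cell cycle score, Bst2 turned from 0.04 to -0.011, Irf7 from 0.07 to -0.12, Ifi44 from 0.10 to -0.11 and Gbp7 from 0.05 to -0.05. Adar (-0.01) turned to 0.04 with that score and to 0.01 with the microglia covariate and the GC and length correction, Ifit1 (-0.04) to 0.01 with voom and 0.06 without *APOE3* replicate 25, and Stat2, Usp18, Mx2 and Igtp turned when single libraries were left out. Genes called lower were 0 to 1, the 1 being Trim25 without *APOE3* replicate 32 or *APOE4* replicate 40. Within females, 0 calls became 8 without a filter on low counts (0.952% of all genes higher), 10 with DESeq2, 12 with voom, 11 without *APOE3* replicate 31 (3.94%), 7 without *APOE4* replicate 35 (0.994%) and 2 without *APOE3* replicate 32 (0.207%), so that leaving out single libraries gave 0 to 11. Replicate 35 of *APOE4* is male, but the 4 groups of libraries share the estimate of the spread in their fit. Leaving it out can therefore also change the tests within females. The cause of the calls without it was not tested. Calls within males, for the interaction and between sexes stayed at 0 throughout. No paired analysis was possible because the genotypes share no replicate numbers. Zbp1, Mx1 and Oas2, at 18 counts or fewer per library, were too shallow to compare at this depth.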
